A study of Danio rerio with 8 samples.

Results

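The genes described here move calcium and other ions in the heart muscle cell, or couple one cell to the next: the pumps, release proteins and stores of the sarcoplasmic reticulum, the exchangers and sodium pump of the surface membrane, the calcium, potassium and sodium channels, the calcium sensors, and the connexins. They were chosen by name and function, as a list of 41 symbols. No measured value enters that choice by rule, but it was made with earlier results of these data known. A probe was matched to 24 of these genes, out of 10536 genes named on the array, and 21 of the 24 had enough signal to be tested. Hearts of zebrafish larvae exposed to 1 uM sorafenib from 72 to 96 hours post-fertilization were compared with hearts of larvae that received the vehicle over the same hours, all at 4 days post-fertilization. The drug, used against cancer, inhibits several kinases, among them RAF and receptors for growth factors of blood vessels. Total heart RNA was labelled with Cy3 and hybridised to 8 one-colour Agilent arrays, 4 per group, and the series describes the 4 replicates of each group as independent experiments. Neither the strain nor the number of hearts pooled per sample is stated in the labels.

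With each heartbeat, calcium entering through L-type channels opens the ryanodine receptors of the sarcoplasmic reticulum, and the calcium released there makes the sarcomeres contract. The SERCA pump then returns calcium to the reticulum and the sodium-calcium exchanger expels the rest, using the sodium gradient that the sodium pump maintains. Voltage-gated sodium and potassium channels shape the action potential, and connexins form the gap junctions through which it spreads. In zebrafish, mutations in several of these genes give embryos with silent, fibrillating or slow hearts, and the larva can survive for days without a working circulation.

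Of 14 marker names of heart muscle, 10 had a probe and 9 were tested. Testing required a probe well above background, by the flag of the scanner software, on at least 4 of 8 arrays. All 9, among them the cardiac light chain gene myl7 and the troponin gene tnnt2a, were so on all 8 arrays, a count that this filter favours. The liver gene fabp10a and the lens gene cryba4 were also well above background on 8 arrays, and the lens gene mipb and the neuronal gene elavl3 on 7. The probes of cryba4 and mipb were dim. Of 15 eye and lens genes with a probe only 5 passed the filter and were tested, so cryba4 and mipb do not stand for that list. The share of spots well above background was 55.0% to 59.0% on the sorafenib arrays and 55.4% to 59.5% on the control arrays, and no spot was saturated. Sorafenib replicates 2 and 3 stood apart from the other arrays in the marker lists of the sarcomere and of the nervous system. The sarcomere score, the mean over 19 sarcomere genes of each gene's deviation from its own mean over all arrays, was 0.46 and 0.58 log2 units in these 2 arrays, -0.11 and -0.25 in sorafenib replicates 1 and 4, and -0.47 to 0.18 in the controls. Of these 19 genes 18 had a positive log2 fold change, as had all 9 tested heart muscle markers. The lists overlap, and of the 9 markers only nppa, nkx2.5 and hand2 are not among the 19 sarcomere genes. The score over 20 genes of the nervous system was -0.79 and -1.09 in sorafenib replicates 2 and 3, 0.27 and 0.26 in sorafenib replicates 1 and 4, and 0.04 to 0.45 in the controls. Of these 20 genes 0 had a positive log2 fold change, and 6 were lower at an unadjusted p under 0.05 in limma, against 3.41% of all transcripts. Genes of liver and plasma proteins had a positive log2 fold change for 12 of 12 tested, 5 of them higher at an unadjusted p under 0.05, against 4.13% of all transcripts. Their score was -0.57 to 1.28 in the sorafenib arrays and -0.84 to 0.31 in the controls. Genes of yolk and digestive tract had a positive log2 fold change for 13 of 13 tested, 5 of them higher at an unadjusted p under 0.05, with a score of -0.18 to 2.09 in the sorafenib arrays and -2.09 to 1.37 in the controls. For smooth muscle genes it was positive for 3 of 3 tested, 2 of them higher at an unadjusted p under 0.05, with a score of -0.07 to 0.68 in the sorafenib arrays and -0.79 to 0.38 in the controls. Over all transcripts 48% had a positive log2 fold change and 4.13% were higher at that p. The score of 7 endothelial and endocardial genes was -0.46 to -0.12 in the sorafenib arrays and 0.10 to 0.35 in the controls, with 1 of 7 log2 fold changes positive. Of these 7 genes 5 were lower at an unadjusted p under 0.05 in limma, against 3.41% of all transcripts. The part that tissue content plays in the results below was not tested, and in these bulk samples fewer cells of a type and less RNA per cell cannot be told apart. Where sorafenib replicates 2 and 3 were the extreme arrays for a gene described by its values, the log2 fold change is also given without them.

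Across the 21 tested genes no difference between sorafenib and control hearts passed the adjusted threshold. By limma, with the Benjamini-Hochberg adjustment over all 20742 transcripts tested, 0 of the 21 genes were higher and 0 were lower at the 0.05 level, and 0% of all transcripts were called in either direction. At an unadjusted p under 0.05 there were 0 genes higher, against 4.13% of all transcripts, and 1 gene lower, against 3.41% of all transcripts. That gene was the connexin gene gja1b, which was also the only one of the 21 whose sorafenib values all lay below its control values, a separation found in 1.94% of all transcripts. None lay entirely above, against 2.23% of all transcripts. The log2 fold change was above 0 for 12 of 21 genes, against 48% of all transcripts, and its median was 0.08 over the 21 genes and -0.02 over all transcripts. A log2 fold change of 0.5 or more was measured for 2 genes, kcnh6a and cx36.7, against 6.93% of all transcripts, and none reached -0.5 or less, against 9.64%. The smallest adjusted p among the 21 genes was 0.642.

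**Figure D1:**
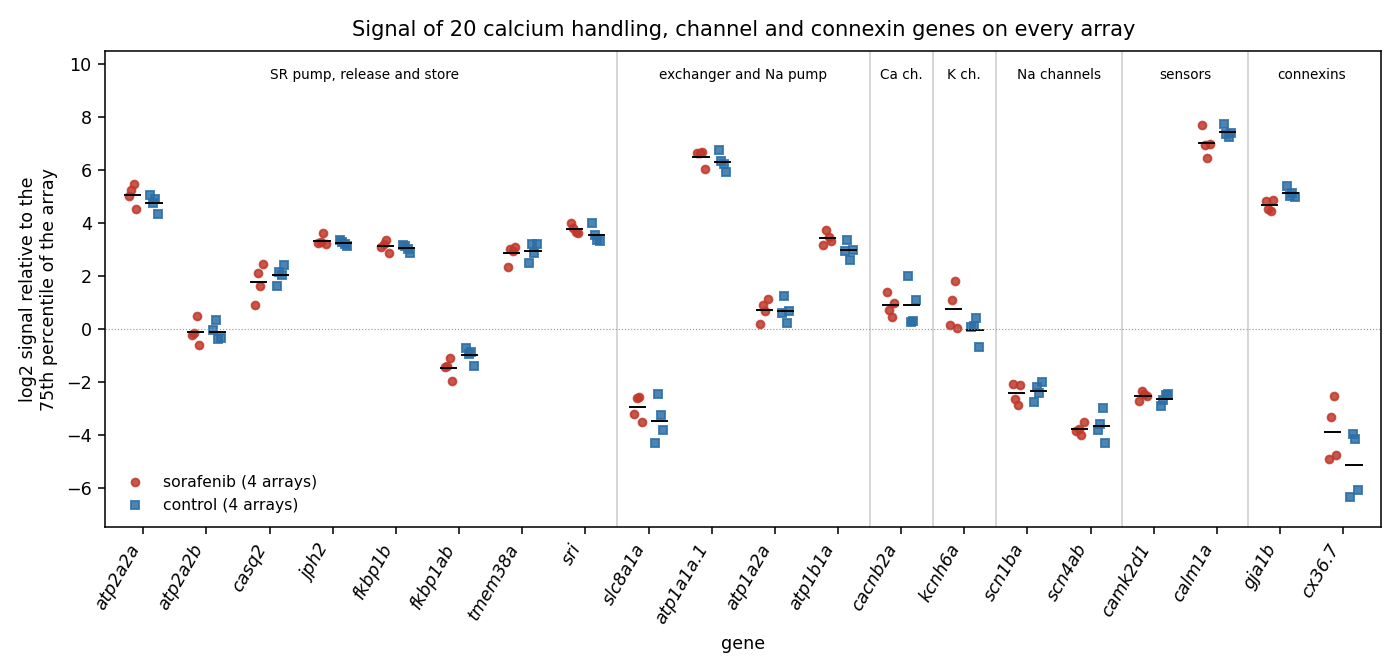
Level of 20 of the 21 tested genes on every array, as log2 processed signal relative to the 75th percentile of its array, with sorafenib arrays as red circles, control arrays as blue squares and group means as black lines (4 arrays per group). The groups overlap for every gene shown except gja1b, whose sorafenib arrays lie between 4.47 and 4.87 and whose control arrays lie between 4.996 and 5.41; heights of different genes come from different probes and are not comparable.

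These differences were measured with limited precision. The 95% confidence interval of the log2 fold change had a half-width between 0.36 (jph2) and 1.57 (cx36.7), with a median of 0.56. For 15 of the 21 genes the interval lay wholly within a 2-fold change in either direction, and for 3 of them within a 1.5-fold change. Those 3 were jph2, fkbp1b and camk2d1. The interval of cx36.7 alone reached past a 4-fold change.

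**Figure D2:**
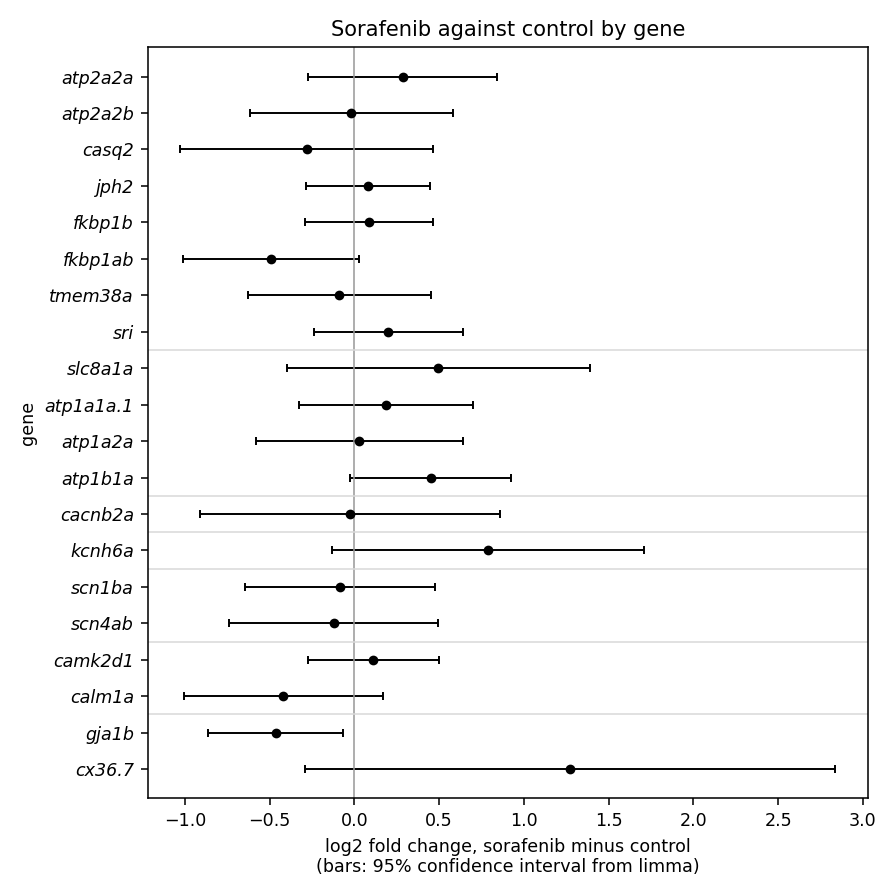
Log2 fold change of 20 of the 21 tested genes, sorafenib minus control, as points with 95% confidence intervals from limma as bars; grey lines separate the roles from the sarcoplasmic reticulum at the top to the connexins at the bottom. Only the interval of gja1b, from -0.86 to -0.07, leaves out 0, and that of cx36.7 is the widest, from -0.29 to 2.84.

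Among the genes of the sarcoplasmic reticulum, 4 of 8 tested had a positive and 4 a negative log2 fold change, with a median of 0.03, and none had an unadjusted p under 0.05. The SERCA pump gene of the heart, atp2a2a, had levels of 5.01, 5.26, 5.47 and 4.52 in sorafenib replicates 1 to 4, against 5.07, 4.77, 4.93 and 4.35 in control replicates 1 to 4, where a level is the log2 processed signal relative to the array's 75th percentile. Sorafenib replicates 2 and 3 were the highest arrays and the remaining sorafenib arrays lay among the controls. On the log2 scale atp2a2a differed by 0.28 ± 0.25 (SE, n = 4 per group), with an adjusted p of 0.762 in limma. This became -0.02 without sorafenib replicates 2 and 3.

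Its paralog atp2a2b had levels of -0.23, -0.15, 0.50 and -0.62 in sorafenib hearts, against -0.04, 0.32, -0.38 and -0.33 in control hearts. The groups overlapped through most of their range, and the log2 fold change was -0.02 ± 0.27 (SE). Calsequestrin 2, encoded by casq2, is a calcium-binding protein that stores calcium in the reticulum. Its levels were 0.89, 2.12, 1.63 and 2.46 in sorafenib hearts and 1.64, 2.13, 2.05 and 2.4002 in control hearts, so that sorafenib replicate 1 was the lowest array and sorafenib replicate 4 the highest. For casq2 the log2 fold change was -0.28 ± 0.33 (SE) on this probe, 0.01 without sorafenib replicate 1, and 0.14 on the dimmer probe of the gene.

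The most tightly measured gene was jph2, whose product junctophilin 2 holds the reticulum close to the surface membrane. Its levels were 3.24, 3.28, 3.61 and 3.21 in sorafenib hearts, against 3.38, 3.29, 3.23 and 3.12 in control hearts. All arrays but sorafenib replicate 3 lay within a narrow band, and the log2 fold change was 0.08, with a 95% interval of -0.28 to 0.44. Sorcin, encoded by sri, is a calcium-binding protein that modulates the ryanodine receptor, and its log2 fold change was 0.20 ± 0.20 (SE). The potassium channel gene tmem38a, whose product carries counter-ions across the membrane of the reticulum, had a log2 fold change of -0.09 ± 0.24 (SE).

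The FK506-binding proteins attach to calcium release channels and steady their closed state, FKBP1B (calstabin 2) mainly on the cardiac receptor in mammals. The zebrafish gene fkbp1b had levels of 3.11, 3.22, 3.36 and 2.88 in sorafenib hearts, against 3.19, 3.12, 3.03 and 2.89 in control hearts. The control range lay inside the sorafenib range, with sorafenib replicates 2 and 3 above all controls. For fkbp1b the log2 fold change was 0.09 ± 0.17 (SE), or -0.06 without sorafenib replicates 2 and 3. Its relative fkbp1ab had levels of -1.45, -1.42, -1.10 and -1.96 in sorafenib hearts, against -0.72, -0.96, -0.87 and -1.41 in control hearts. All sorafenib arrays except replicate 3 lay below the lowest control array, replicate 4. The log2 fold change of fkbp1ab was -0.49 ± 0.23 (SE), with an unadjusted p of 0.0613 and an adjusted p of 0.655 in limma. It was -0.71 without sorafenib replicates 2 and 3. Under normexp background correction, a fit distorted on sorafenib replicate 4, it was 0.13. Under normexp with high local backgrounds capped it was -0.18.

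The surface membrane genes that set sodium and calcium gradients all had positive log2 fold changes, 4 of 4 tested with a median of 0.32. Over all transcripts 48% had a log2 fold change above 0. None of the 4 genes had an unadjusted p under 0.05. Without sorafenib replicates 2 and 3, 3 of 4 were positive. Under centring on sarcomere genes 2 of 4 turned negative. Normexp background correction turned 3 of 4 negative, but that fit was distorted on sorafenib replicate 4. Under normexp with high local backgrounds capped, 4 of 4 were positive. The exchanger gene slc8a1a, which is mutated in the zebrafish line tremblor with its fibrillating heart, had levels of -3.21, -2.61, -2.56 and -3.50 in sorafenib hearts, against -4.33, -2.46, -3.25 and -3.83 in control hearts. The probe was dim, well above background on 4 sorafenib and 3 control arrays, and the group ranges overlapped. Its log2 fold change was 0.50 ± 0.40 (SE) and became 0.11 without sorafenib replicates 2 and 3.

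The sodium pump subunit gene atp1a1a.1 is the gene of the zebrafish mutant heart and mind, in which the primitive heart tube fails to elongate. Its levels were 6.66, 6.66, 6.67 and 6.06 in sorafenib hearts, against 6.77, 6.33, 6.25 and 5.95 in control hearts. Apart from sorafenib replicate 4 the sorafenib arrays were nearly equal, and they lay within the control range. With these values the log2 fold change of atp1a1a.1 was 0.19 ± 0.23 (SE). A second catalytic subunit gene, atp1a2a, had levels of 0.20, 0.90, 0.66 and 1.13 in sorafenib hearts, against 0.61, 1.26, 0.22 and 0.67 in control hearts, with a log2 fold change of 0.03 ± 0.27 (SE). The other probe of this gene gave 0.04.

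The beta subunit gene atp1b1a, whose product carries the pump to the membrane, had levels of 3.17, 3.75, 3.49 and 3.31 in sorafenib hearts, against 2.96, 3.36, 2.60 and 3.001 in control hearts. Only control replicate 2 reached into the sorafenib range. Its log2 fold change was 0.45 ± 0.21 (SE), with an unadjusted p of 0.0612 and an adjusted p of 0.655 in limma, and it was 0.26 without sorafenib replicates 2 and 3.

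Of the calcium channel genes only the auxiliary subunit gene cacnb2a could be tested. Its product helps to bring L-type channels to the membrane. The levels were 1.41, 0.71, 0.47 and 0.99 in sorafenib hearts and 2.01, 0.26, 0.30 and 1.096 in control hearts, with replicate 1 the highest array in both groups. The group means were nearly equal, with a log2 fold change of -0.02 ± 0.39 (SE). The pore-forming subunit gene cacna1c, mutated in the silent ventricle of the zebrafish line island beat, was well above background on 0 of the 8 arrays, so no fold change is given.

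The potassium channel gene kcnh6a encodes the main ERG-type channel of the zebrafish heart, which carries the rapid repolarizing current and is affected in the mutant breakdance. It had levels of 0.16, 1.08, 1.80 and 0.02 in sorafenib hearts, against 0.08, 0.12, 0.41 and -0.70 in control hearts. The highest arrays were sorafenib replicates 2 and 3, while sorafenib replicates 1 and 4 lay inside the control range. For kcnh6a the log2 fold change was 0.79 ± 0.41 (SE), a 1.73-fold ratio with a 95% interval of 0.911 to 3.27, and the adjusted p in limma was 0.663. It was 0.11 without sorafenib replicates 2 and 3 (unadjusted p = 0.737 in limma). The related gene kcnh2a was well above background on 0 sorafenib arrays and 1 control array.

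Of the sodium channel genes described here, the muscle channel gene scn4ab had levels of -3.85, -3.78, -4.03 and -3.52 in sorafenib hearts and -3.81, -3.60, -2.98 and -4.30 in control hearts. Here the sorafenib values lay wholly inside the control range, with a log2 fold change of -0.12 ± 0.27 (SE). The scn4ab probe was dim, with processed signals of 5.80 to 19.2 in control hearts, although well above background on 4 sorafenib and 4 control arrays. The beta subunit gene scn1ba gave a log2 fold change of -0.08 ± 0.25 (SE).

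Among the calcium sensors, the kinase gene camk2d1, related to the CaMKII form that predominates in mammalian heart, gave a log2 fold change of 0.11 ± 0.17 (SE). Calmodulin, encoded by calm1a and several other genes, is the sensor through which calcium reaches that kinase and many channels. Levels of calm1a were 7.69, 6.97, 6.45 and 6.99 in sorafenib hearts, against 7.76, 7.38, 7.25 and 7.40 in control hearts. The values of sorafenib replicates 2, 3 and 4 lay below all controls, and sorafenib replicate 1 lay above 3 of the 4. The log2 fold change of calm1a was -0.42 ± 0.26 (SE) on this probe, -0.54 on the dimmer probe, and -0.10 without sorafenib replicates 2 and 3. Its adjusted p in limma was 0.684.

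The connexins included the 1 gene whose groups did not overlap in the reported fit. Connexin 43, encoded by gja1b, forms gap junctions in many tissues, and in mammals it is the main connexin of the working ventricle. Levels of gja1b were 4.85, 4.52, 4.47 and 4.87 in sorafenib hearts, against 5.41, 5.03, 5.13 and 4.996 in control hearts. Every sorafenib array lay below every control array, and sorafenib replicate 4 and control replicate 4 came closest to each other. Group means were 4.68 ± 0.21 in sorafenib hearts and 5.14 ± 0.19 in control hearts (SD, n = 4 each). For gja1b the log2 fold change was -0.47 ± 0.18 (SE), a ratio of 0.724 with a 95% interval of 0.550 to 0.955, and it did not pass over all transcripts (unadjusted p = 0.0268, adjusted p = 0.642 in limma). The groups overlapped under 4 of the 12 alternatives that used all arrays of both groups. These were quantile normalization, normexp with high local backgrounds capped, the authors' deposited log2 table and centring on sarcomere genes. The slide and replicate blocks, array weights, other dim-probe filters and the mean over probes left each array's gja1b value as it was, so they could not change the overlap. Apart from these, only normexp (-1.06) and scaling on the median of probes above background on all arrays (-0.47) kept the groups apart. That normexp fit was distorted on sorafenib replicate 4, and with high local backgrounds capped the log2 fold change was -0.45. Within slide 1 the log2 fold change of gja1b was -0.54 and on slide 2 -0.39, and with slide as a block its unadjusted p was 0.0347 in limma. The lowest gja1b values were those of sorafenib replicates 2 and 3, the arrays with high sarcomere and low nervous system scores, and without them the log2 fold change was -0.29 (unadjusted p = 0.224 in limma). The endothelial score given above, which also had groups without overlap, was lower in the sorafenib arrays, and its part in the gja1b values was not tested. Leaving out 1 array at a time kept the log2 fold change between -0.53 and -0.38, with an unadjusted p between 0.0194 and 0.0736 in limma, and that p was above 0.05 when control replicate 1 or 3, or sorafenib replicate 2 or 3, was the array left out.

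The early heart connexin gene cx36.7, listed as gjd6 in the current gene table, is needed for ordered myofibrils in the zebrafish heart. It had levels of -4.90, -3.33, -2.54 and -4.76 in sorafenib hearts, against -6.37, -3.98, -4.18 and -6.11 in control hearts. The probe was well above background on 2 of 4 arrays in each group, and these were replicates 2 and 3 of both groups. Its log2 fold change of 1.27 ± 0.70 (SE), with a 95% interval of -0.29 to 2.84 and an adjusted p of 0.670 in limma, rests in part on arrays where the probe was not well above background. It was 0.65 under normexp background correction and 0.16 under normexp with high local backgrounds capped. Without sorafenib replicates 2 and 3 no sorafenib array with the probe well above background is left, and no fold change is given. The connexin gene gja3, also listed under its older name cx48.5, was well above background on 0 of 8 arrays.

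The 2 arrays that stood apart, sorafenib replicates 2 and 3, were also the extremes for several of the genes. They had the 2 highest values of all 8 arrays for 5 of 21 genes, atp2a2a, fkbp1b, atp1b1a, kcnh6a and cx36.7, against 12.4% of all transcripts. The 2 lowest values were theirs for calm1a and gja1b, 2 of 21 genes, against 12.4% of all transcripts. Leaving both arrays out moved the median log2 fold change of the 21 genes to -0.01, with 10 of 21 above 0. In this smaller comparison 1 gene was lower at an unadjusted p under 0.05. This was fkbp1ab (unadjusted p = 0.0327, adjusted p = 0.9998 in limma), and gja1b did not pass. The share of all transcripts called in this comparison is not given, so the count cannot be read as a result about the 21 genes.

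**Figure D3:**
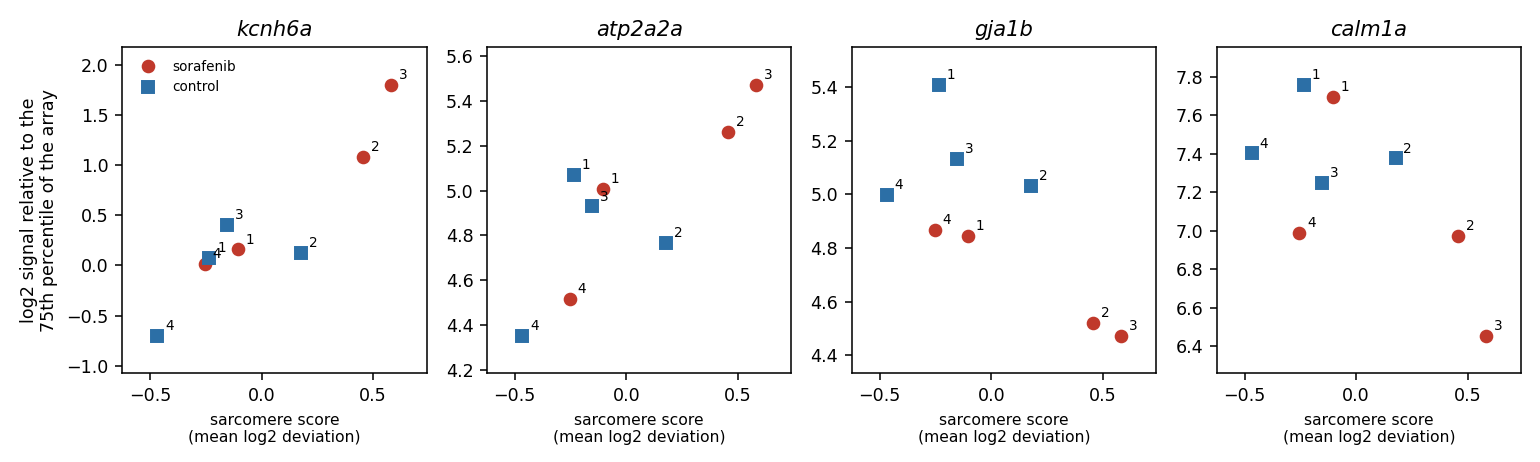
Level of kcnh6a, atp2a2a, gja1b and calm1a (log2 signal relative to the array's 75th percentile) against the sarcomere score of the same array (mean log2 deviation over 19 genes), with sorafenib arrays as red circles, control arrays as blue squares and replicate numbers beside them. Sorafenib replicates 2 and 3, with scores of 0.46 and 0.58, hold the highest kcnh6a and atp2a2a values and the lowest gja1b values; their part in the group differences was not tested.

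Related genes were also compared within each array, where the scaling of the array drops out and a change in the difference of 2 log2 signals shows unequal change of the pair. Of 16 pairs fixed by family or function, 5 had both genes tested. For fkbp1b minus fkbp1ab the difference was 4.56, 4.64, 4.46 and 4.84 in sorafenib hearts, against 3.91, 4.08, 3.90 and 4.30 in control hearts. All 4 sorafenib arrays exceeded all 4 control arrays, and the mean was 4.63 ± 0.16 in sorafenib hearts and 4.05 ± 0.19 in control hearts (SD, n = 4 each). The change of 0.58 had an exact two-sided permutation p of 0.0286, the smallest that 4 arrays against 4 can give, and a Benjamini-Hochberg adjusted p of 0.143 over the 5 pairs. It was 0.61 on slide 1, 0.55 on slide 2 and 0.65 without sorafenib replicates 2 and 3, but it was -0.57 under normexp background correction and 0.29 under normexp with high local backgrounds capped. The groups of this pair overlapped under quantile normalization, with a change of 0.50, and in the authors' log2 table, with a change of 0.32.

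Of the 3 other pairs described here, all overlapped between the groups. The within-array difference of atp2a2a minus atp2a2b was 5.19 ± 0.18 in sorafenib hearts and 4.89 ± 0.39 in control hearts (SD, exact permutation p = 0.257, n = 4 each). For atp1a1a.1 minus atp1a2a it was 5.79 ± 0.64 in sorafenib hearts and 5.64 ± 0.54 in control hearts (SD, exact permutation p = 0.771). The widest change belonged to gja1b minus cx36.7, with 8.56 ± 1.35 in sorafenib hearts and 10.3 ± 1.35 in control hearts (SD, exact permutation p = 0.171), a pair in which cx36.7 was well above background on 4 arrays only. The adjusted p, over the 5 pairs, was 0.771 for the sodium pump pair and 0.321 for the other pairs of this paragraph.

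**Figure D4:**
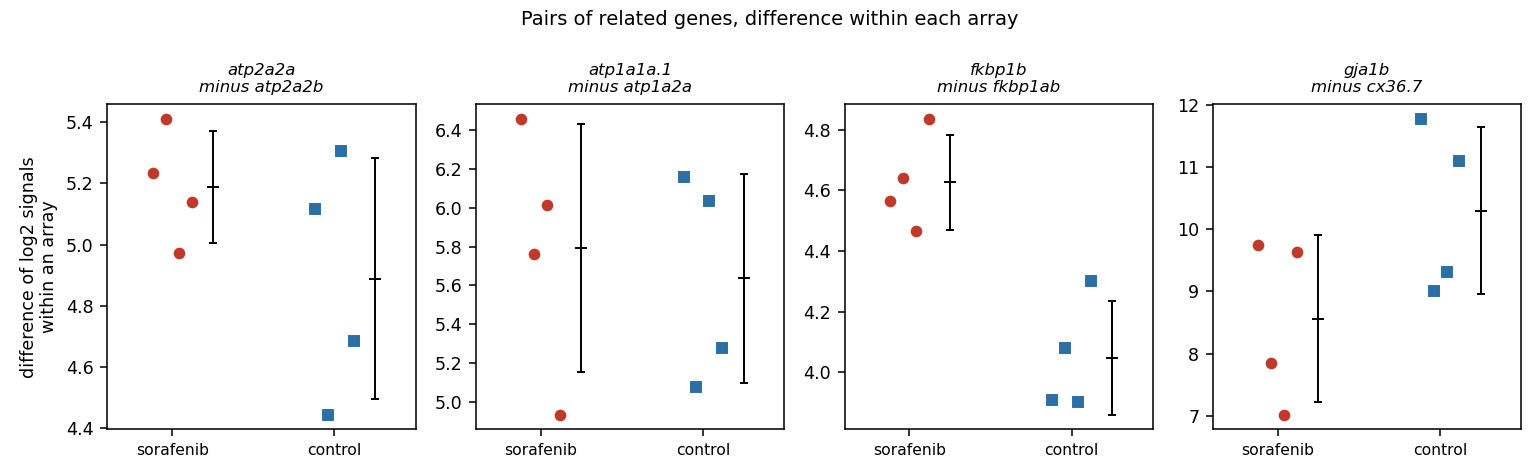
Difference of the log2 signals of 2 related genes within each array for 4 of the 5 testable pairs, with sorafenib arrays as red circles left of control arrays as blue squares and bars for mean ± SD (n = 4 each); the vertical scale differs between panels. Only fkbp1b minus fkbp1ab separates the groups, with sorafenib arrays from 4.46 to 4.84 and control arrays from 3.90 to 4.30.

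The rest of the pathway was followed through a list of 211 further symbols of calcium handling, channel, pump, connexin and adrenergic genes, of which 70 were tested. No gene of this list passed the adjusted threshold in either direction, and its smallest adjusted p was 0.307. At an unadjusted p under 0.05, 3 of 70 were higher, against 4.13% of all transcripts, and 1 of 70 was lower, against 3.41%. The log2 fold change was above 0 for 24 of 70, against 48% of all transcripts, and its median was -0.12. It was 0.5 or more for 4 of 70 genes, against 6.93% of all transcripts, and -0.5 or less for 9 of 70 genes, against 9.64% of all transcripts. Groups did not overlap for 2 of 70 on the higher side, against 2.23%, and for 0 of 70 on the lower side, against 1.94%. For 5 of 70 the 2 highest arrays were sorafenib replicates 2 and 3, against 12.4% of all transcripts. For 14 of 70 the 2 lowest arrays were sorafenib replicates 2 and 3, against 12.4% of all transcripts.

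Among these further genes the sodium pump subunit gene atp1a1a.4, known in zebrafish from ion-transporting skin cells, had the smallest p. Its levels were 4.05, 3.97, 4.15 and 4.02 in sorafenib hearts, against 2.89, 3.20, 3.09 and 3.50 in control hearts, with no overlap. This gave a log2 fold change of 0.88 ± 0.17 (SE), with an unadjusted p of 0.000595 and an adjusted p of 0.307 in limma. Of the marker genes of skin, pharynx and ionocytes, 11 of 13 tested had a positive log2 fold change, against 48% of all transcripts. At an unadjusted p under 0.05 in limma 3 of the 13 were higher, against 4.13% of all transcripts. Their score was -0.35 to 0.29 in the sorafenib arrays and -0.32 to 0.01 in the controls, and its part in the atp1a1a.4 values was not tested. A close paralog, atp1a1a.3, had a log2 fold change of 0.61 ± 0.26 (SE). Another paralog, atp1a1b, had -0.67 ± 0.30 (SE), with levels of 3.25, 2.32, 1.85 and 3.02 in sorafenib hearts against 3.37, 3.05, 3.37 and 3.34 in control hearts. It was -0.15 without sorafenib replicates 2 and 3, the 2 lowest arrays. Whether the probes tell these close paralogs apart was not tested.

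The calcium channel gamma subunit gene cacng1a, best known from skeletal muscle, also had groups without overlap, with levels of 2.35 to 2.98 in sorafenib hearts and 1.69 to 2.15 in control hearts. Its log2 fold change was 0.60 ± 0.20 (SE), with an adjusted p of 0.582 in limma, and 0.41 without sorafenib replicates 2 and 3. The score of 22 skeletal muscle genes was -0.11 to 0.08 in sorafenib hearts and -0.16 to 0.16 in control hearts. The mitochondrial calcium uptake gene micu2 had a log2 fold change of 0.49 ± 0.23 (SE) and the popeye domain gene popdc1, whose product binds cyclic AMP, 0.44 ± 0.20 (SE). Without sorafenib replicates 2 and 3 these were 0.28 for micu2 and 0.18 for popdc1.

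On the lower side stood a further calmodulin gene, calm1b, with a log2 fold change of -0.44 ± 0.20 (SE) beside the -0.42 of calm1a, and -0.22 without sorafenib replicates 2 and 3. The inward rectifier gene kcnj11l gave -0.62 ± 0.29 (SE), but its probe was well above background on 1 sorafenib and 4 control arrays, so that this value rests on signals near background. The calcium-binding protein gene s100a1, whose product enhances SERCA activity in mammals, gave -0.55 ± 0.26 (SE). The store sensor gene stim1a gave -0.43 ± 0.22 (SE). The unadjusted p of these 4 genes lay between 0.0541 and 0.0829.

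Probe coverage limits what can be said of the calcium release channel itself. No probe was matched to 14 of the 41 names, which include the ryanodine receptor genes ryr2a and ryr2b, triadin (trdn), the second exchanger slc8a1b, the inward rectifier genes kcnj2a, kcnj3a and kcnj5, and the pacemaker channel genes hcn4 and hcn4l. The others without a matched probe were asph, cacna1g, cacnb2b, kcnq1 and pvalb9. The phospholamban symbols plna and plnb were not in the gene table used for naming. For 9 genes with more than 1 probe, the log2 fold changes of the probes differed by 0.01 to 0.42, and they differed in sign for casq2 and jph2.

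The sign of many of the fold changes depended on the background correction, the scaling or the arrays kept. Centring each array on its sarcomere genes in place of the 75th percentile moved the median log2 fold change of all transcripts to -0.35 and that of the 21 genes to -0.26. Under that scaling 4 of 21 genes stayed above 0, namely slc8a1a, atp1b1a, kcnh6a and cx36.7, and gja1b was at -0.80. Over 23 alternatives, 5 genes kept the sign of their log2 fold change in every alternative that measured them, and 16 changed sign in at least 1. The 5 were slc8a1a, kcnh6a and cx36.7, which were positive, and calm1a and gja1b, which were negative. The probes of slc8a1a and cx36.7 were dim, and each gene was measured in 21 of the 23 alternatives. For cx36.7 these include leaving out sorafenib replicates 2 and 3, where no sorafenib array had the probe well above background. Uncapped normexp, distorted on sorafenib replicate 4, kept the sign of only 10 of 21 genes. For atp1b1a and fkbp1ab it was the only alternative that changed the sign. Several alternatives leave a value as it is by construction, and for gja1b 5 of the 23 gave the same value as the reported fit. All gja1b sorafenib values lay below all control values in the reported fit. Alternatives that left out arrays, kept 1 slide or weighted arrays could therefore not change its sign. In none of the 23 alternatives did a gene of the 21 pass the adjusted threshold. Over all transcripts at most 32 passed, of 20742 tested with array weights, so this count is not a result about the 21 genes.

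**Figure D5:**
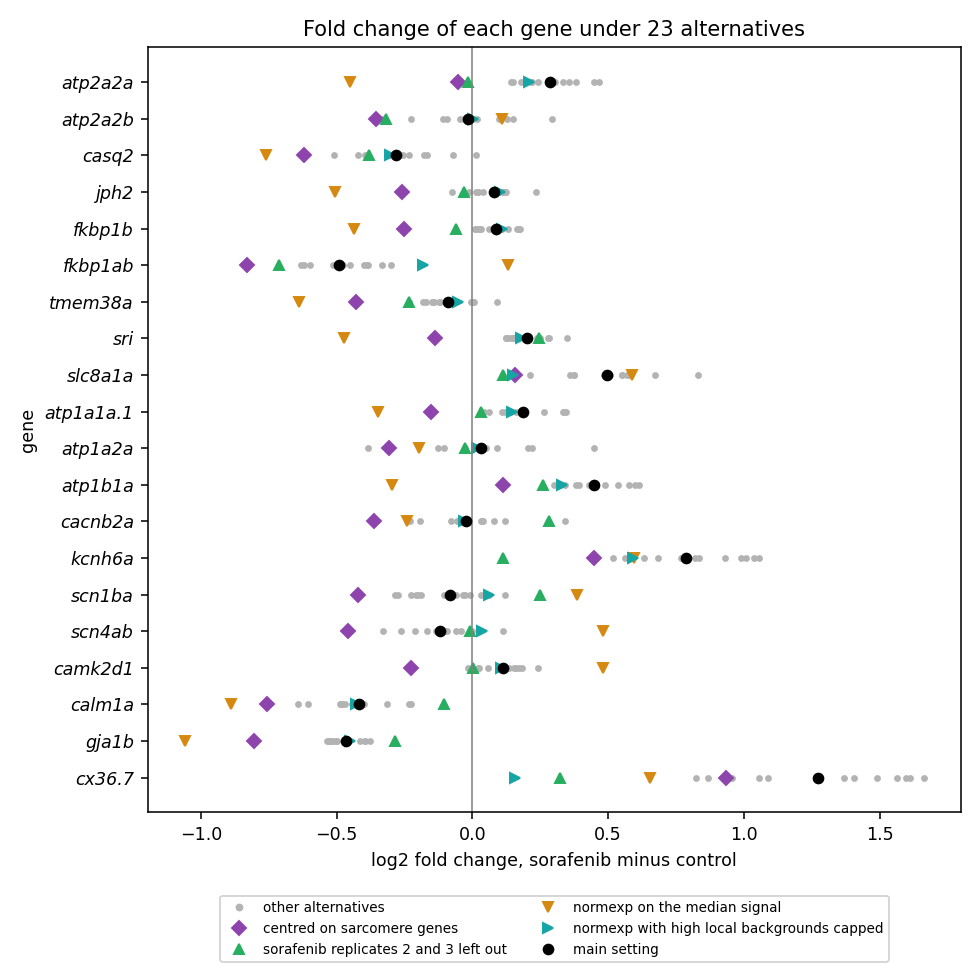
Log2 fold change of 20 of the 21 tested genes, sorafenib minus control, under 23 alternatives (grey dots, with 4 alternatives marked by shape) and under the main setting (black circles). Values of gja1b stay between -1.06, from the normexp fit distorted on sorafenib replicate 4, and -0.29. Those of kcnh6a stay between 0.11 and 1.05, while most other genes cross 0 under at least 1 alternative.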

How the data were processed

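Spot intensities of 8 one-colour arrays (45220 spots each) had been read and background-subtracted by the authors' scanner software, Feature Extraction 10.1.1.1 per the file headers, while the submitters' processing notes name version 8.0. A log2 table of all 8 arrays, which the authors deposited with its normalization unstated, served as an alternative. Control and outlier spots were left out, spots of a probe averaged, and log2 processed signals set against the 75th percentile of each array. Of 43603 probes, 15163 were named through their RefSeq accessions, covering 10536 genes. Probes well above background on at least 4 of 8 arrays entered, the brightest per gene, and probes without a name were merged by accession, which gave 8906 named genes and 11836 unnamed transcripts. Groups were compared with limma 3.58.1 in R 4.3.3, two-sided, with the Benjamini-Hochberg adjustment over all of them. Script steps were checked on simulated data. Genes and lists were chosen with earlier results of these data known. A single tested gene is counted in the totals, and its values are not reported here. The other names are accounted for, with every array given for genes with an unadjusted p under 0.05, non-overlapping groups, an absolute log2 fold change of 0.5 or more, or a testable pair, and for others by role. Of the further pathway genes, 5 per direction are named, ranked by p. The arrays lay on 2 slides, each with both groups. Precision is limited by how few arrays there are.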

Additional observations from a re-analysis of the deposited data

Results flagged for a closer look

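A single value stood far from the others of its group. For atp1a1a.1, a sodium pump gene, sorafenib replicate 4 had a level of 6.06 (log2 relative to the array's 75th percentile), while the other 3 sorafenib arrays lay between 6.66 and 6.67. Its gap to the nearest value was 0.978 of the group's range, above Dixon's critical value for 4 arrays. This was 1 of 42 groups examined (21 genes in sorafenib and control hearts), where chance gives about 2.1. Before scaling, the processed signal of atp1a1a.1 on sorafenib replicate 4 was 10202, the highest of its group, whose lowest was 8519. The 75th percentile of that array was 153, against 84.2 to 97.7 on the other 3 sorafenib arrays.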

How the results depend on the processing

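All 23 alternatives gave 0 of the 21 genes (19 where the probes were fewer) with an adjusted p under 0.05 in limma. Over all transcripts at most 32 passed (array weights, 20742 tested), so the 0 is not a result about these genes. The log2 fold change of gja1b was negative in 23 of 23, between -1.06 (normexp, distorted on sorafenib replicate 4) and -0.29. Its unadjusted p in limma was under 0.05 in 16. Of these alternatives 5 leave its value as it is by construction. In the reported fit all gja1b sorafenib values lay below all control values. Leaving out arrays, keeping 1 slide or weighting arrays therefore could not change its sign. Its groups overlapped under quantile normalization, capped normexp, the authors' log2 table and sarcomere centring. The number of genes higher at an unadjusted p under 0.05, 0 in the reported fit, was 1 under normexp, 1 under normexp with high local backgrounds capped, 2 with array weights and 3 with the replicate block. Genes lower, 1 in the reported fit, numbered 3 under normexp, 0 within slide 1, 0 within slide 2, 3 with the replicate block and 2 with centring on sarcomere genes. The median log2 fold change of the 21 genes, 0.08 in the reported fit, was -0.24 under normexp, where that of all transcripts was 0.12, 0.24 within slide 2, and -0.26 with sarcomere centring. Pairs without overlap numbered 0 under quantile normalization, 0 in the authors' log2 table and 3 within slide 1, against 1. Within a slide there are fewer arrays per group, which separate more easily by chance, so that count is not comparable with the others. Leaving out 1 array at a time gave 0 to 3 genes higher (3 without control replicate 2), 0 to 2 lower (0 without control replicate 1 or 3 or sorafenib replicate 2) and 1 to 2 pairs without overlap. The shares of all transcripts at an unadjusted p under 0.05 in limma, 4.13% higher and 3.41% lower, belong to the reported fit. Matching shares for the alternatives are not given, so the gene counts under them cannot be read as a result about the 21 genes. The change of fkbp1b minus fkbp1ab reversed to -0.57 under normexp. That fit raised the 75th percentile of sorafenib replicate 4 to 584, against 149 to 206 on the other arrays, and 11 of 21 genes changed sign under it. The capped version, chosen after seeing the data, set 30 spots to the median local background of their array and left 3 sign changes. Sign changes of genes with no call in either setting are given as counts. The deviations of same-numbered replicates had correlations of 0.27, 0.43, 0.04 and 0.70. Because of the low value for number 3, the numbers were not taken to pair the samples. Every array except sorafenib replicate 3 correlated best with its own number, a hint from the data and not from the design. With the replicate block the genes higher at an unadjusted p under 0.05 were atp1b1a, kcnh6a and cx36.7 (unadjusted p = 0.000656, adjusted p = 0.295 in limma), and the genes lower were fkbp1ab, calm1a and gja1b (unadjusted p = 0.0201 in limma). Signal limits slc8a1a, scn4ab, cx36.7 and kcnj11l, whose probes were dim or near background.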
